A study of Homo sapiens with 6 samples.

Results

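The AP-1 transcription factor genes described here are 10 genes chosen by name, FOS, FOSB, FOSL1, FOSL2, JUN, JUNB, JUND, ATF3, BATF2 and BATF3, and all 10 were found among the 37887 rows of the count table. RNA was sequenced from BT-549 cells, an established triple-negative breast cancer (TNBC) line, in 3 control libraries and 3 libraries silenced for PBRM1, a subunit of the PBAF chromatin remodeling complex. The titles call the groups control shRNA and shPBRM1. The treatment labels and the series design describe both as cells stably carrying a tet-PBRM1 shRNA vector, given 0.1% DMSO as vehicle in the control group and 500 ng/ml doxycycline (DOX), which switches on the shRNA, in the shPBRM1 group. Which construct the control cells carried is therefore not settled by the labels. By the treatment labels only the shPBRM1 group received DOX, so the silencing, any action of the drug itself and, if the vectors differed, a difference between them cannot be told apart. The libraries are triplicate cultures of 1 line, so p-values measure the spread between these cultures.

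AP-1 is a dimer of basic leucine zipper (bZIP) proteins. Jun proteins pair with each other or with Fos proteins, whereas Fos proteins need a partner, and ATF and BATF proteins join the same dimers through their zippers. Growth factors and stress induce several of these genes within minutes through MAP kinases, and the dimers bind the TRE (TGACTCA) or the related CRE (TGACGTCA) in promoters and enhancers.

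Total counts were 36429395, 47996676 and 49784336 in the control libraries and 60221790, 40035400 and 65096297 in the shPBRM1 libraries, and all values for libraries follow this order of replicates 1 to 3. Levels are CPM, counts scaled to library size, with TMM normalization. At these depths the floor of detection, set at 3 counts, lay between 0.0471 and 0.0804 CPM, for counting error only. PBRM1 itself was 158 ± 2.30 CPM in the control and 41.9 ± 1.22 CPM in the shPBRM1 libraries (SD, n = 3 each), a log2 fold change of -1.91 (SE 0.027).

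The line was checked against markers. VIM, CDH2 and ZEB1, markers of mesenchymal cells, were at 621, 252 and 197 CPM in the control and at 770, 366 and 135 CPM in the shPBRM1 libraries. ESR1, PGR and EPCAM were near 0. CDH1, the epithelial cadherin, was at 5.002 ± 0.363 CPM in the control and fell to 1.51 ± 0.313 CPM in the shPBRM1 libraries (SD, n = 3 each), a log2 fold change of -1.73 (edgeR adjusted p = 9.58e-10). ERBB2 was measured at 51.3 and 50.02 CPM. The 10 markers of leukocytes, endothelium, red cells and adipocytes summed to between 1.13 and 1.65 CPM in the control and to between 0.866 and 0.926 CPM in the shPBRM1 libraries. PTPRC was the most abundant of them in the control, at 0.797 CPM against 0.132 CPM in the shPBRM1 libraries, where CD14 was the most abundant, at 0.678 CPM against 0.331 CPM in the control. PTPRC was called lower and CD14 higher (edgeR adjusted p = 6.35e-06 and 0.0160). Of the 10 markers, 3 were at 0 in every library and 5 had no library above the floor.

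Short stretches of promoter sequence are shown because 4 of the genes hold sites of the kind that AP-1 and ATF dimers bind. RefSeq promoters (GRCh38.p14) were matched for 8 of the 10 genes, not for FOSL1 and BATF3. The 250 bases upstream of each start were searched on both strands. Capitals mark the match, CRE in JUND and TGACATCA in the other 3, and each stretch is written 5′ to 3′ on the strand of the gene.
JUN, chr1:58784096-58784125, minus strand: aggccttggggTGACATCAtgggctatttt
ATF3, chr1:212565273-212565302, plus strand: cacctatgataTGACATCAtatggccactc
BATF2, chr11:64990391-64990420, minus strand: ctaggacagaaTGACATCAaggttgccacg
JUND, chr19:18281804-18281833, minus strand: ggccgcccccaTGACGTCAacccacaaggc

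The matches lay 67 bases before the start in JUN, 123 in ATF3, 132 in BATF2 and 200 in JUND. The starts are those of RefSeq. ATF3 has another RefSeq start, whose window, chr1:212614768-212615017, held no match to any motif searched. The BATF2 entry belongs to a start inside the gene, and the JUN stretch lies within the exon of JUN as GENCODE v29 annotates it, with a start further upstream. TGACATCA, a variant of the CRE that was searched for after the sequences had been seen, occurred in 2.37% of all 35116 promoters. CRE occurred in 1.65% and TRE in 4.20%. No window of the 8 genes held TRE, the interferon response core GAAANNGAA (6.88% of all promoters) or the serum response core CCATATTAG (0.074%). Sites beyond these 250 bases were not searched, so a miss does not show that a gene, FOS included, lacks the site. The BATF2 window ended at base 64990527, so the sequence before the GENCODE start of BATF2 at 64997045 was not searched. A match describes letters and does not show that a factor binds.

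All 10 AP-1 genes fell in the shPBRM1 libraries. Among all 15450 genes tested with edgeR (quasi-likelihood test, adjusted p under 0.05), 33.2% were lower and 31.5% were higher, 64.7% in all, so a fall by itself was common. ATF3 and BATF2 fell by over 2-fold, as did 9.68% of all genes, while none of the 10 rose by over 2-fold, against 2.87% of all genes. The groups did not overlap for any of the 10 genes, against 68.3% of all genes, and each gene was lower in 3 of 3 pairs of libraries with the same number. The median log2 fold change was -0.64 over the 10 genes and -0.0080 over all genes tested. As these are bulk samples, fewer cells with a transcript and less of it per cell cannot be told apart.

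**Figure D1:**
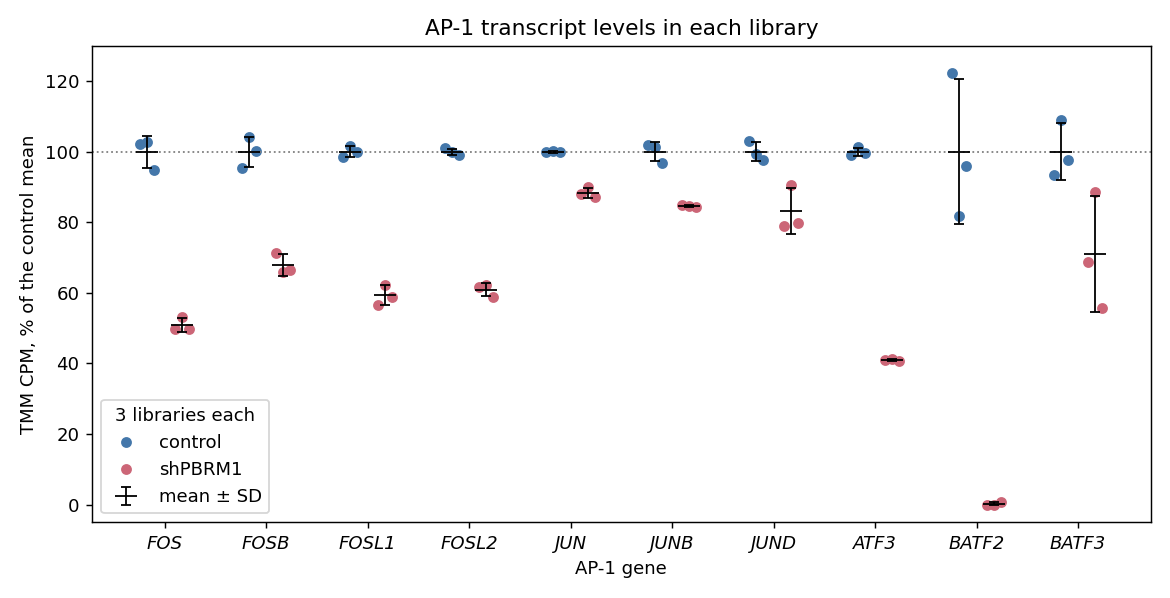
Levels of the 10 AP-1 genes (horizontal axis) as TMM-normalized CPM in percent of each gene's control mean (vertical axis), with a point for each of 3 control and 3 shPBRM1 libraries and bars for mean ± SD. No gene has overlapping groups, and the means left in shPBRM1 cells run from near 0 in BATF2 and 40.9% in ATF3 to 88.4% in JUN.

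Among the Fos genes, FOSL1 and FOSL2 were abundant and FOS and FOSB were low. FOSL1 (FRA-1), the Fos protein typical of mesenchymal breast cancer lines, lies on chromosome 11 from 65892049 to 65900573 (GENCODE v29, GRCh38, as for all gene positions here). Its levels were 150, 155 and 152 CPM in the control and 86.5, 95.0 and 89.9 CPM in the shPBRM1 libraries. Every shPBRM1 library was well below the lowest control, and the log2 fold change was -0.76 (SE 0.041, adjusted p = 2.03e-14, edgeR).

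FOSL2 (FRA-2), its closest relative, lies on chromosome 2 from 28392448 to 28417312. It measured 373, 369 and 366 CPM in the control and 228, 229 and 218 CPM in the shPBRM1 libraries. The libraries of each group were close together, with 60.9% of the control level left in shPBRM1 cells (log2 fold change -0.72, SE 0.026, adjusted p = 1.29e-13, edgeR).

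FOS, the founding member and a classic immediate early gene, lies on chromosome 14 from 75278774 to 75282230. It was at 8.04, 8.08 and 7.46 CPM in the control and at 3.91, 4.19 and 3.92 CPM in the shPBRM1 libraries. The level left was 51.0% of the control, a log2 fold change of -0.97 (SE 0.049, adjusted p = 1.25e-08, edgeR). This is just inside 2-fold, and the change was -1.01 without control replicate 3.

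FOSB, induced like FOS by growth factors, lies on chromosome 19 from 45467995 to 45475179. Its levels were 4.66, 5.08 and 4.90 CPM in the control and 3.48, 3.21 and 3.25 CPM in the shPBRM1 libraries. Of the Fos genes it fell least, by 0.56 on the log2 scale (SE 0.051, adjusted p = 2.03e-04, edgeR).

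The 3 Jun genes fell by less, with log2 fold changes from -0.27 to -0.18, against -0.97 to -0.56 for the 4 Fos genes. JUN, the main partner of Fos proteins, lies on chromosome 1 from 58780788 to 58784327. It was at 183.7, 184.5 and 183.6 CPM in the control and at 161.9, 165.5 and 160.1 CPM in the shPBRM1 libraries. The replicates were so close that a level of 88.4% of the control was called lower (log2 fold change -0.18, SE 0.014, adjusted p = 8.60e-05, edgeR).

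JUNB, which often opposes JUN in growth control, lies on chromosome 19 from 12791496 to 12793315. Its levels were 109, 109 and 104 CPM in the control and 91.2, 90.9 and 90.7 CPM in the shPBRM1 libraries, a log2 fold change of -0.24 (SE 0.023, adjusted p = 9.35e-07, edgeR). Its exons overlap exons of HOOK2 on the opposite strand, and the strand setting of the counting is not given in the sources used here. HOOK2 was at 5.35 CPM in the control and 4.56 CPM in the shPBRM1 libraries.

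JUND, the Jun gene that is expressed most constantly in many tissues, lies on chromosome 19 from 18279760 to 18281622. It was at 184, 177 and 175 CPM in the control and at 141, 162 and 143 CPM in the shPBRM1 libraries. shPBRM1 replicate 2 stood nearest to the control, and the log2 fold change was -0.27 (SE 0.067, adjusted p = 1.38e-05, edgeR).

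The Jun transcripts are rich in GC, at 56.7% in JUN, 64.9% in JUNB and 69.7% in JUND. With the replicate number as a block and offsets for GC content and length, an alternative added after the data had been seen, their log2 fold changes shrank to -0.11, -0.13 and -0.09 and stayed called, with edgeR adjusted p-values of 0.00196, 0.00125 and 0.0192. The log2 fold changes of the Fos genes in that fit were -0.95 in FOS, -0.46 in FOSB, -0.70 in FOSL1 and -0.63 in FOSL2. With the replicate block alone, the log2 fold changes of JUN, JUNB and JUND were -0.18, -0.24 and -0.27, so the shrinkage came with the offsets. GC content and length were not fitted apart, and how far GC content takes part in the Jun values was not tested further.

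ATF3, a stress-induced factor that binds as a homodimer or with Jun proteins, lies on chromosome 1 from 212565334 to 212620777. It was at 53.7, 54.9 and 54.0 CPM in the control and at 22.2, 22.3 and 22.1 CPM in the shPBRM1 libraries. The libraries of each group nearly coincided, and 40.9% of the control level was left (log2 fold change -1.29, SE 0.011, adjusted p = 1.34e-16, edgeR).

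BATF2, an interferon-induced BATF protein that partners Jun, lies on chromosome 11 from 64987943 to 64997045. It had 170, 148 and 180 counts in the control libraries and 0, 0 and 2 counts in the shPBRM1 libraries. No shPBRM1 library was above the floor, and BATF2 was at least 64.1-fold lower against a floor of 3 counts per library.

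BATF3, best known from dendritic cells, lies on chromosome 1 from 212686418 to 212699985. Its counts were 92, 140 and 130 in the control and 109, 91 and 94 in the shPBRM1 libraries, which gave 2.46, 2.88 and 2.58 CPM against 1.82, 2.34 and 1.47 CPM. The gap between the highest shPBRM1 and the lowest control library was narrow. The log2 fold change was -0.52 (SE 0.199, adjusted p = 0.0120, edgeR), and the call was lost without control replicate 2 (-0.45, adjusted p = 0.0596) and without shPBRM1 replicate 3 (-0.37, adjusted p = 0.101).

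**Figure D2:**
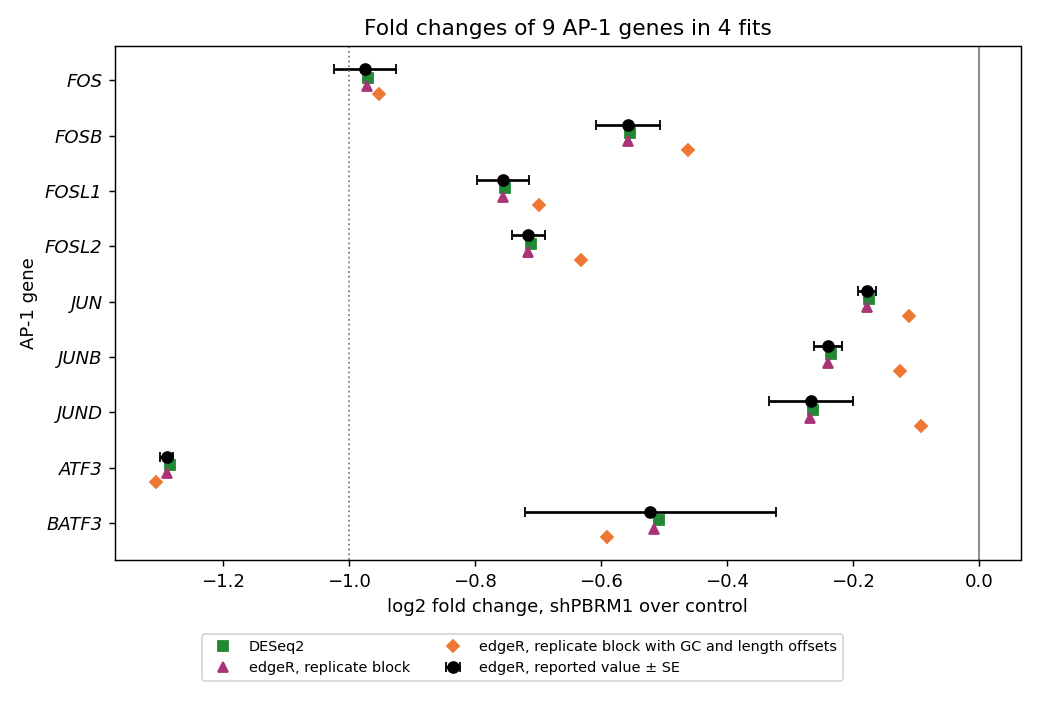
Log2 fold change, shPBRM1 over control (horizontal axis), of the AP-1 genes other than BATF2 in 4 fits, with the reported edgeR value ± SE in black and a dotted line at 2-fold. The 3 Jun genes lie nearest to 0 in each of these fits and move closer to it with offsets for GC content and length.

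To compare levels between the genes, CPM were divided by the kilobases of annotated exons. The sum over the 10 genes was 358 ± 4.38 CPM per kb in the control and 263 ± 9.71 CPM per kb in the shPBRM1 libraries (SD, n = 3 each). On this scale JUND was highest in the control at 96.0, followed by FOSL1 at 80.8, JUNB at 59.0, JUN at 52.0 and FOSL2 at 51.6 CPM per kb. The values of JUN and FOSL2 overlapped between libraries. ATF3 followed at 13.4, FOS at 2.43, BATF2 at 1.31, BATF3 at 0.973 and FOSB at 0.879 CPM per kb, and the last pair overlapped. These levels depend on the length used, which for ATF3 is 4040 bases of exons but 2103 in its longest transcript. The close ranks of JUN and FOSL2 and of BATF3 and FOSB depend on it too.

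In the shPBRM1 libraries JUND was again highest at 79.8 CPM per kb. JUNB at 49.97, FOSL1 at 47.9 and JUN at 45.9 CPM per kb came next, and neighbours among these overlapped. The order of JUNB and FOSL1 depends on the length used, 1887 bases of exons in FOSL1 but 1669 in its longest transcript. FOSL2 was at 31.4, ATF3 at 5.49, FOS at 1.238, BATF3 at 0.692 and FOSB at 0.597 CPM per kb, with BATF3 and FOSB overlapping, and BATF2 was last.

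The Fos genes together went from 37.9% ± 0.475 of the summed level in the control to 30.9% ± 0.139 in the shPBRM1 libraries, a difference of -7.01 percentage points. The Jun genes went from 57.7% ± 0.486 to 66.8% ± 0.156, a difference of 9.04 points, although their own level was lower. ATF3, BATF2 and BATF3 went from 4.38% ± 0.0192 to 2.35% ± 0.0354. The ratio of Fos to Jun was 0.656 ± 0.0137 in the control and 0.462 ± 0.00314 in the shPBRM1 libraries (SD, n = 3 each). The groups did not overlap in any of these measures, and the exact two-sided permutation p was 0.1 for each, the smallest that 3 against 3 libraries can give. These sums were made without GC offsets, and messenger RNA does not give the amount of protein or dimer.

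**Figure D3:**
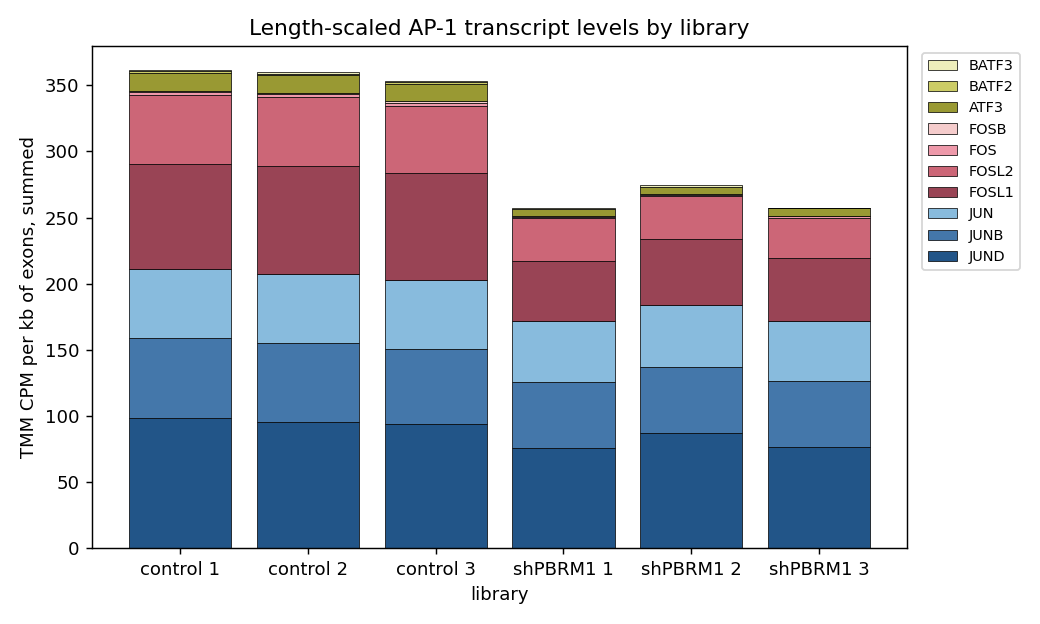
Stacked levels of the 10 AP-1 genes in each of the 6 libraries, in TMM-normalized CPM per kb of exons, with Jun genes in blue, Fos genes in red and ATF3, BATF2 and BATF3 in olive. The whole bars are lower in the shPBRM1 libraries (mean 263 against 358), and the red segments shrink by more than the blue ones.

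The genes around AP-1 are given below as log2 fold changes from the same fit, with standard errors of at most 0.205 and edgeR adjusted p-values of at most 0.00198 unless stated. Their counts are to be read against all genes tested, of which 33.2% were lower and 31.5% higher. Of 25 genes of the MAPK cascade, the kinases and factors that activate AP-1, 6 were lower, 11 were higher and 8 were not called. The median log2 fold change was 0.12, and the calls in both directions together were near the 64.7% of all genes. With the replicate block and GC and length offsets, 7 were lower and 14 higher. Together these were above the share of all genes called in that fit, 5044 lower and 5072 higher. MAP2K6, which activates p38 kinases, fell from 58.0 to 11.5 CPM (-2.32), and MAP3K5 (ASK1), a stress-activated kinase upstream of p38 and JNK, fell from 44.2 to 16.8 CPM (-1.39). MAP2K4, which activates JNK, the kinase of JUN, rose from 29.98 to 48.96 CPM (0.71). MAPK11 and MAP3K1 fell by 0.67 and 0.48 on the log2 scale.

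The 15 tested brakes were phosphatases of MAP kinases, ubiquitin ligases of JUN and factors that destabilize short-lived transcripts. Of these, 7 were lower, 3 were higher and 5 were not called (median -0.24), again near the share of all genes called. With the replicate block and GC and length offsets, 8 were lower and 4 higher, together above the share of all genes called in that fit. DUSP4, DUSP5 and DUSP6, phosphatases that ERK signaling induces, fell by 1.40, 1.09 and 1.06 on the log2 scale. DUSP6 was at 46.3 ± 0.363 CPM in the control and 22.2 ± 1.38 CPM in the shPBRM1 libraries (SD, n = 3 each). ZFP36L2, which binds AU-rich transcripts, changed by -0.76 and DUSP10 by -0.40.

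Of 22 other bZIP genes tested of 24 listed, 16 were lower, 0 were higher and 6 were not called (median -0.40). With the replicate block 1 was higher, ATF6B, at a log2 fold change of 0.14 (edgeR adjusted p = 0.0273), a gene named after its value was seen. MAFF, a small Maf protein that pairs with other bZIP factors, fell from 91.7 to 30.6 CPM (-1.58). DDIT3 (CHOP), a factor of the unfolded protein response, fell from 71.7 to 25.5 CPM (-1.49). NFE2L2 (NRF2), the regulator of the oxidative stress response, fell from 153 to 87.0 CPM (-0.81), and NFE2L3 changed by -0.64.

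Other immediate early genes, which serum and stress induce together with FOS and JUN, were mostly lower, with 16 lower, 3 higher and 2 not called of 21 tested (median -0.50). EGR1, a zinc finger factor that often tracks FOS, fell from 189 ± 4.16 to 41.3 ± 3.11 CPM (SD, n = 3 each), a log2 fold change of -2.20. KLF4 changed by -1.55, the nuclear receptors NR4A3 and NR4A2 by -1.37 and -1.19, and PPP1R15A (GADD34) by -1.29. The 3 higher genes were IER5 at 1.14, CCN1 at 0.35 and SGK1 at 0.34, named after their values were seen.

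The 10 heat shock genes listed were taken as possible reporters of stress during handling. HSPA1A and HSPA1B, named after their values were seen, averaged 2 and 0.167 counts per library and were not tested. Of the 8 tested, 2 were lower, 5 were higher and 1 was not called (median 0.34). Among all genes 33.2% were lower and 31.5% higher. With the replicate block HSPB1, named after its value was seen, was also called higher, at 0.086 (edgeR adjusted p = 0.0205). HSPE1 and HSPD1, the mitochondrial chaperonins, rose by 0.59 and 0.35 on the log2 scale. DNAJB1 and HSPH1 rose by 0.53 and 0.48, and DNAJB4 fell by 0.59. Whether handling takes part in the AP-1 values was not tested.

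Of 23 tested genes with textbook AP-1 control, 14 were lower, 8 were higher and 1 was not called (median -0.29). MMP1, a collagenase, fell from 38.4 to 2.34 CPM (-4.06), and IL6, the inflammatory cytokine, fell from 144 to 9.19 CPM (-3.97). AREG, a ligand of the EGF receptor, changed by -2.91 and VEGFA by -1.14. HBEGF, another EGF receptor ligand, rose from 17.8 to 37.8 CPM (1.08). Many of these genes have other regulators, and no binding was measured here.

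Of the factors with which BATF proteins bind composite sites, and the STAT genes listed with them, 4 of 4 tested, of 6 listed, were lower. STAT2 changed by -2.36, IRF9 by -1.88 and IRF1 by -1.60 on the log2 scale.

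**Figure D4:**
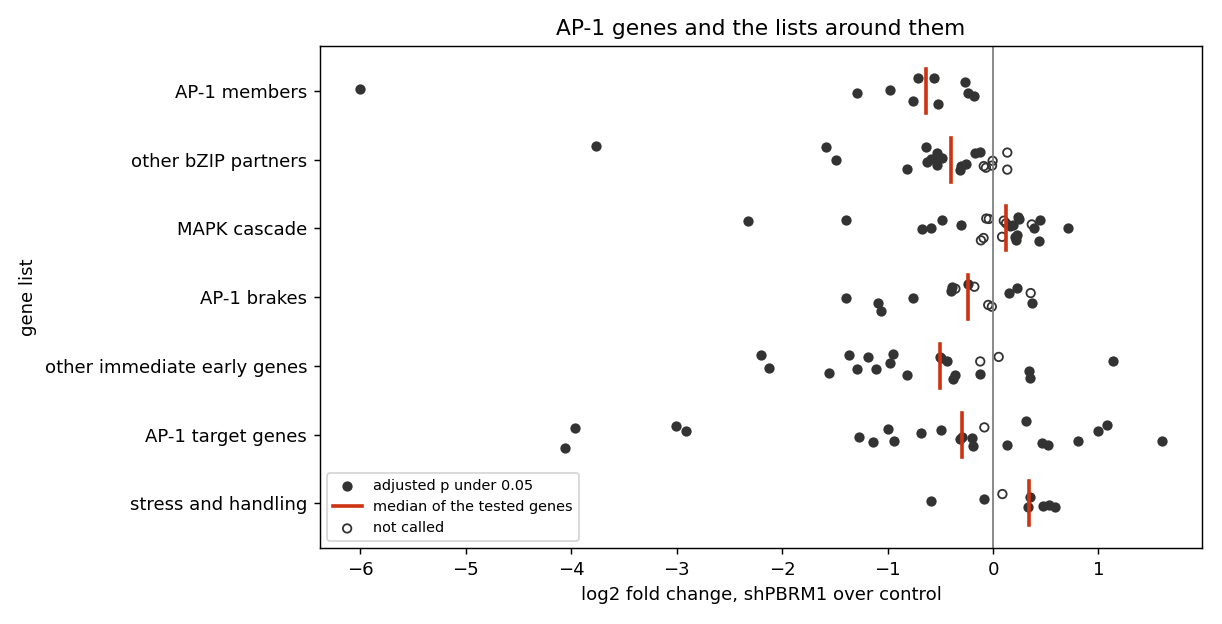
Log2 fold change, shPBRM1 against control, of the genes tested in each list, beside the 10 AP-1 genes. Filled points passed an adjusted p under 0.05, open points did not, red lines are medians, and BATF2 is drawn at its bound. The AP-1 genes are all below 0, the MAPK cascade lies on both sides and most heat shock genes lie above 0.

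Genes with the pattern most like each AP-1 gene were sought among 11533 genes by the Euclidean distance of centred log2 CPM over the 6 libraries. Where replicates are close, this distance largely reflects the difference in fold change, so a short distance does not show shared control. How many genes lie within a given distance likewise depends in part on how many changed by a like amount. FOS was nearest to HMOX1 (0.048), the heme oxygenase gene, then to ARMC9 and ARHGEF2. FOSL1 was nearest to SH3RF2, ZMIZ1 and CD9, and FOSB to NSMAF, JAK2 and HMGXB3. FOSL2 was close to MIB2 and CLIP1. ATF3 was nearest to PARP6, APOL2 and ADAR, whose log2 fold changes of -1.287, -1.277 and -1.287 were close to its own.

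JUN was nearest to UBP1, P3H1 and RFX7, JUNB to DMTF1, IKBKB and GNA11, and JUND to ZNF865, SLC25A30 and LTBR. Within a distance of 0.1 lay 257 genes for JUN, 144 for JUNB and 22 for JUND, against 36 for FOSL2, 32 for FOSL1, 28 for FOSB, 12 for ATF3 and 11 for FOS. BATF3 had none within 0.1, and its nearest were ID2-AS1 (0.197), LIMS2 and BBC3. BATF2 was not compared, as its mean was under 100 counts.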

How the data were processed

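RNA from BT-549 cells was sequenced in 3 control and 3 shPBRM1 libraries with a stranded mRNA kit. The deposited values are raw counts for each gene symbol, which the authors had not normalized. The submitters' processing notes name CASAVA 1.8.2, STAR 2.7.9a, featureCounts, DESeq2 1.24.0 and GRCh38.p7. In the table, 14 rows carry dates in place of symbols and were not named.

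The main test used edgeR 4.0.16 under R 4.3.3 (filterByExpr, TMM, quasi-likelihood F-test, Benjamini-Hochberg over 15450 genes), and calls were made at an adjusted p under 0.05. Standard errors come from log2 CPM (prior count 2). The procedure was tested on simulated data. Libraries of the same group differed beyond sampling noise (chi-square per degree of freedom 4.94 to 25.7). Replicate numbers come from the titles. Columns taken as control carry the cell line and a number but not the word control. They were matched to the control titles by these and by the absence of shPBRM1 in the name. Libraries with the same number deviated together (r = 0.734, 0.593 and 0.419 across 5622 genes, which are not independent). For different numbers r was between -0.671 and 0.464, the highest being control replicate 2 with shPBRM1 replicate 3.

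The members and lists were chosen with earlier results of these data known. Named are the members, PBRM1, from each list up to 5 genes with the largest change among those called whose groups do not overlap and whose mean reaches 100 counts, and the 3 nearest genes to each member. Outside this rule stand the cell type markers, which were a list of their own. HOOK2, IER5, CCN1, SGK1, ATF6B, HSPB1, HSPA1A, HSPA1B, MAP3K7, CREB3 and EZR also stand outside it and were chosen after their values were seen. Alternatives were DESeq2 1.42.0, RLE factors, library size only, a minimum mean of 50 counts, no filter, leaving out each library, the replicate block, an adjusted p under 0.001, glmTreat against 2-fold, and for shares other lengths. The block with GC and length offsets and the motif TGACATCA were added after the data had been seen. Protein sequences were not used here, and a few genes that the naming rule selects are not reported.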

Additional observations from a re-analysis of the deposited data

How the results depend on the processing

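All 10 AP-1 genes stayed lower in direction under every alternative run, and 10 of 10 stayed called except for BATF3 without control replicate 2, without shPBRM1 replicate 3 and at an adjusted p under 0.001, and except under glmTreat, which tests against 2-fold and called 2. Leaving out each library gave 9 to 10 lower calls and 2 to 3 over 2-fold. With library size only, the median of all genes shifted to -0.056 and FOS passed 2-fold (-1.02). The replicate block changed no AP-1 gene's call. Among the listed genes it added calls for ATF6B, HSPB1 and MAP3K7 (higher) and for CREB3 and EZR (lower), and removed none. Genes over 2-fold among all genes numbered 941 lower and 270 higher under a minimum mean of 50 counts, and 913 and 175 under glmTreat. Other bZIP genes called higher numbered 1 with no filter or with the replicate block, 2 with the block and GC and length offsets, and 0 to 1 with a library left out. Heat shock genes called lower numbered 1 with no filter or at an adjusted p under 0.001, and 1 to 2 with a library left out. The Fos share differed by -6.55 points with the length of the longest transcript, and by -7.28 to -6.85 with a library left out. The causes were not tested. BATF3 and BATF2 had mean counts of 109 and 83.3 per library. Whether low counts take part in their spread was not tested.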
